A study of Mus musculus with 7 samples.

Results

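The genes described here move iron into macrophages, store it, release it and export it. They are 10 of 25571 rows of the deposited gene table: Tfrc, Slc11a1, Slc11a2, Fth1, Ftl1, Ncoa4, Slc40a1, Cp, Aco1 and Ireb2. They were chosen by name and role, with earlier results of these data known. The cells were CD11b+ tumor-associated macrophages, isolated by fluorescence-activated sorting from T387 glioblastoma xenografts growing in the brains of NSG mice, a strain without T, B or NK cells. One group received Pracinostat, an inhibitor of histone deacetylases, by oral gavage at 30 mg/kg in 4 doses per week over 3 weeks, from day 7 after implantation (n = 4). The other group was dosed with the solvent alone, a mixture of DMSO, PEG300, Tween-80 and PBS that both groups received (n = 3). The label on drug preparation has 3 mg/kg, and the dose here is the one in the dosing protocol. The labels name neither age nor sex of the mice. The comparison asks how transcripts of these iron genes stood in tumor macrophages after weeks on the drug.

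Macrophages take up transferrin-bound iron through the transferrin receptor and recover iron from engulfed red cells by opening heme. Iron that is not used is held inside ferritin shells of heavy and light chains or leaves the cell through ferroportin. The iron regulatory proteins bind a hairpin, the iron-responsive element, and hold back translation when it lies in a 5′ UTR or protect the transcript from decay when it lies in a 3′ UTR. Much of this control is therefore on translation, which counts of RNA do not measure.

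Runs of the members that match an iron-responsive element pattern are shown because they mark transcripts that can carry the shared control element. Transcripts of the GENCODE vM21 annotation (build GRCm38) were searched on their own strand for CNNNNNCAGTGN followed by 5 bases that pair with the 5 N bases after the first C, with G-T pairs allowed. Each printed run is 27 bases, 5′ to 3′, with 5 bases of flank on each side, and capitals mark the loop. The deposited counts used the build GRCm39, so these positions belong to the older build.
Fth1 5′ UTR, chr19:9982733-9982759, plus strand: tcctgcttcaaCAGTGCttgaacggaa
Ftl1 5′ UTR, chr7:45459780-45459806, minus strand: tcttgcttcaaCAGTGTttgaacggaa
Slc40a1 5′ UTR, chr1:45925466-45925492, minus strand: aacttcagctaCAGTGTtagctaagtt
Tfrc 3′ UTR, chr16:32631220-32631246, plus strand: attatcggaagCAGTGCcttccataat
Tfrc 3′ UTR, chr16:32631599-32631625, plus strand: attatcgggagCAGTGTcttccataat
Tfrc 3′ UTR, chr16:32631664-32631690, plus strand: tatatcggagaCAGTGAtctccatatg
Tfrc 3′ UTR, chr16:32631711-32631737, plus strand: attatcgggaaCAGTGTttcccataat
The pattern lay in a UTR of 4 of the 10 members (40%), against 160 of 21877 protein-coding genes searched (0.731%). The pattern describes a known element of iron genes and the members were chosen for iron roles. These shares therefore locate the element and do not test for enrichment. The Fth1 and Ftl1 runs share their stem, Slc40a1 has a different stem, and Tfrc alone among the members held more than 1 match. The match was present in 4 of 5 annotated protein-coding transcripts of Fth1, 1 of 2 of Ftl1, 1 of 4 of Slc40a1 and 1 of 3 of Tfrc. For the other 6 members, no match says only that no annotated transcript held these letters with all 5 stem bases paired. An element with an unpaired base in that stem would be missed.

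Libraries were made from 1 ng of total RNA and held 10142753 to 16950597 estimated counts, with 16319 to 19244 genes detected. Levels are CPM, counts scaled to a fixed library total, with TMM-scaled library sizes. The labels call the samples biological replicates without naming animals, so p-values measure the spread between these samples. Itgam, which encodes CD11b, stood at 1318 to 1688 CPM with DMSO and 1448 to 2580 CPM with Pracinostat. Macrophage and microglia markers summed to 6288 to 7112 CPM and 5924 to 9616 CPM, with all 8 markers detected. Collagen transcripts set 2 libraries apart, with Col1a1 at 702 CPM in DMSO replicate 2 and 440 CPM in Pracinostat replicate 1. Oligodendrocyte markers summed to 190 to 362 CPM with DMSO and 212 to 1046 CPM with Pracinostat. Endothelial markers summed to 246 to 306 CPM and 89.8 to 392 CPM. Erythroid markers, relevant to blood carry-over, summed to at most 1.81 CPM in any library.

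No iron gene passed the test between the groups. By edgeR's quasi-likelihood test, 0 of 15822 genes (0%) had a Benjamini-Hochberg adjusted p under 0.05, and each of the 10 members had an adjusted p of 0.9998. Among the members 0 had an unadjusted p under 0.05, where 661 of all genes tested did (4.18%), with 2.81% higher and 1.37% lower. DESeq2 called 27 of the 16878 genes to which it gave an adjusted p (0.16%) and 0 members, and limma-voom called 0 genes (0%). At an unadjusted p under 0.05, DESeq2 gave Slc40a1 and Ftl1 and limma-voom gave Ftl1. By edgeR, RLE or upper-quartile scaling, a minimum count of 30 and no robust estimation each gave Ftl1. With no low-count filter edgeR gave Slc40a1 and Ftl1. Over all genes, 4.67% were under that threshold by DESeq2 and 5.03% by limma-voom. It was 4.19 to 4.3% with those edgeR settings and 5.29% with no low-count filter. The DESeq2 share is over genes not filtered for low counts, and the limma-voom share is over the 15822 filtered genes. The fold change was negative for 9 of the 10 members, with a median of -0.21 on the log2 scale and a range of -0.83 to 0.07. Over all genes tested 47.7% were negative and the median was 0.02. Without Pracinostat replicate 3, which was the lowest of the 7 libraries for 6 members, 8 of 10 were negative and the median was -0.11. Groups overlapped for all 10 members, against 965 of the 15822 genes without overlap (6.1%), with 3.51% higher and 2.59% lower.

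**Figure D1:**
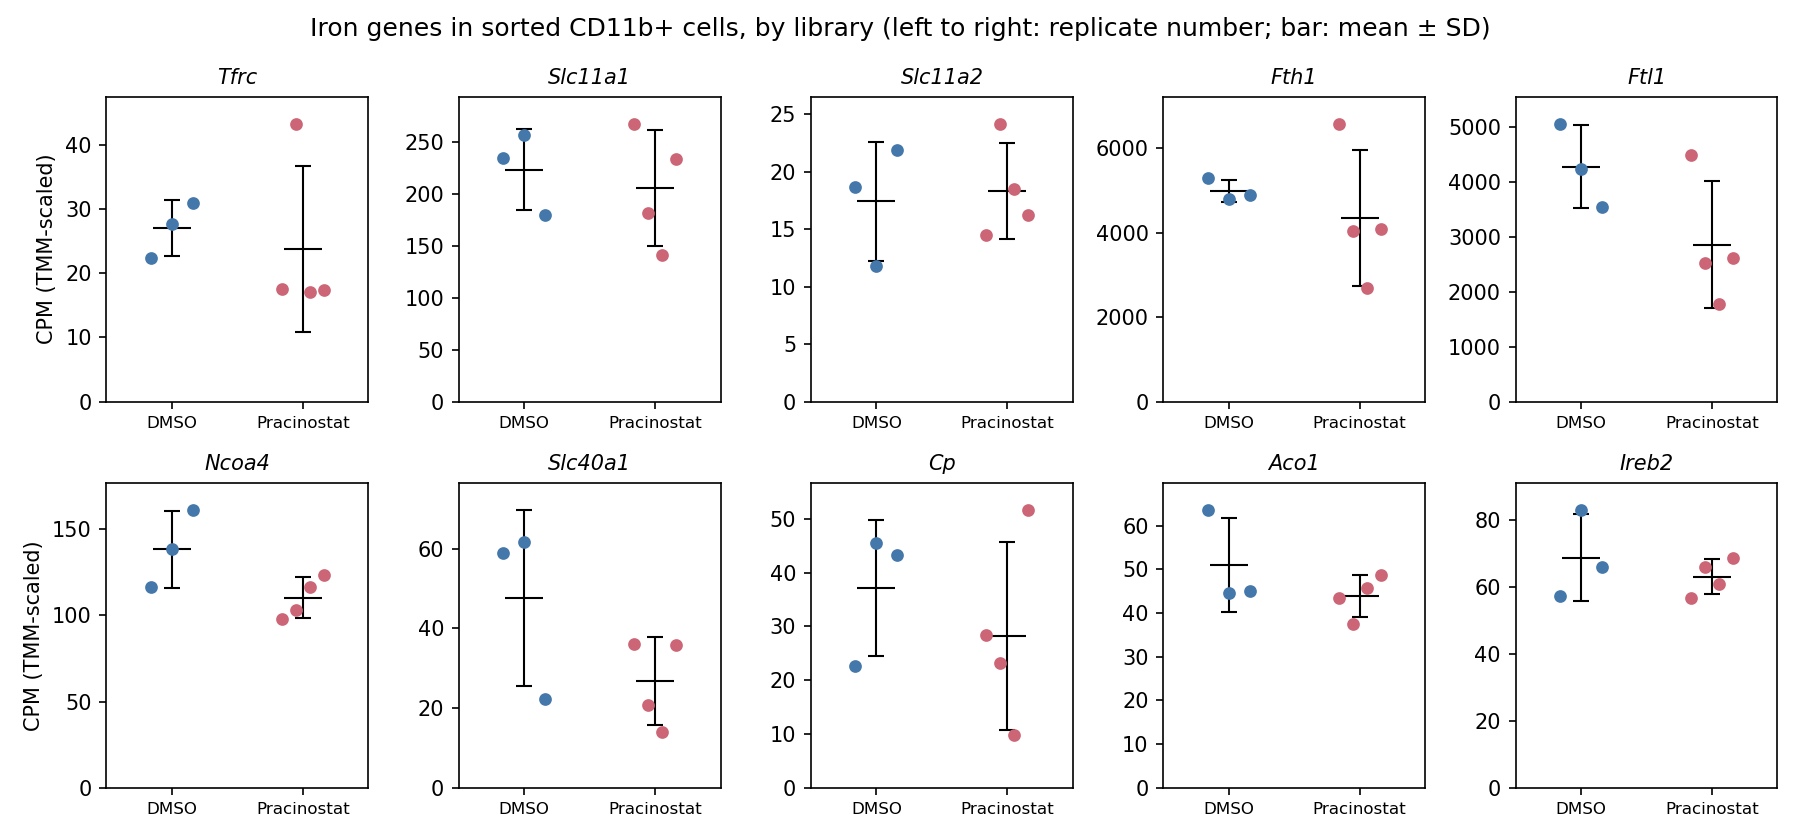
Level of each of the 10 iron genes in CPM, by library, in 3 DMSO and 4 Pracinostat samples. Points are libraries in order of replicate number from left to right, and bars are the mean with the SD. The groups overlap in every panel, and Pracinostat replicate 3 is the lowest of the 7 libraries in 6 of the 10 panels.

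**Figure D2:**
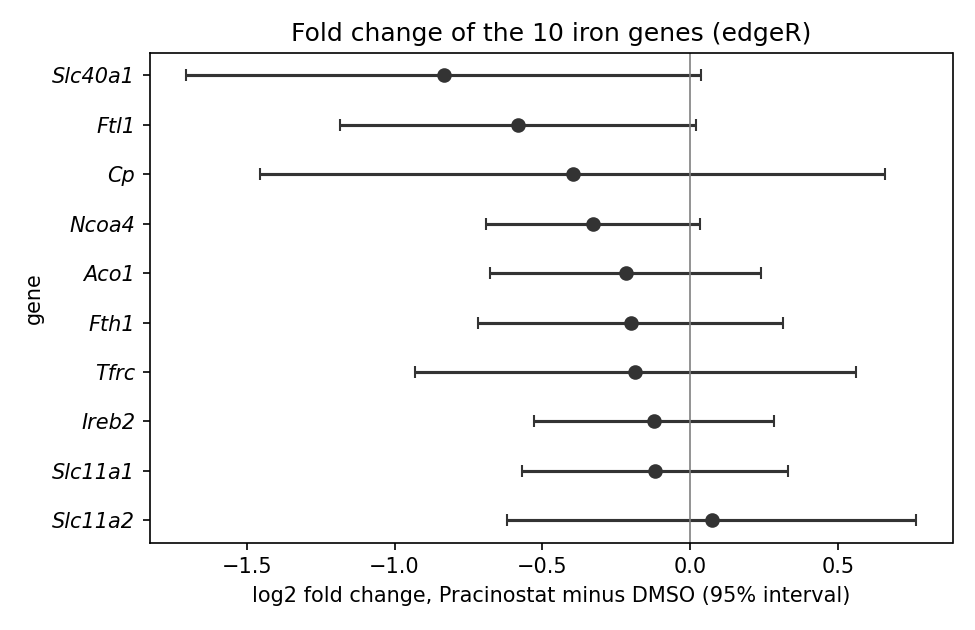
Log2 fold change, Pracinostat minus DMSO, of each of the 10 iron genes by edgeR, with its 95% interval. All 10 intervals cross 0, from Slc40a1 at -0.83 to Slc11a2 at 0.07.

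Per length of transcript, ferritin stood far above the rest. CPM values were divided by the length in kilobases of 1 annotated principal transcript per gene. In the DMSO group Fth1 averaged 5377 CPM per kb (5166 to 5694) and Ftl1 4417 CPM per kb (3664 to 5216). Their ranges overlap, and the principal Fth1 transcripts run from 929 to 1494 bases, so the order of the pair rests on the choice of transcript. Slc11a1 came next at 96.4 CPM per kb (77.6 to 110.6), then Ncoa4 at 41.3 CPM per kb (34.7 to 48.0). The ranges of Slc11a1 and Ncoa4 lay apart from each other and from those of their neighbours. From Slc40a1 down, neighbours overlapped. Slc40a1 averaged 14.1, Aco1 13.3, Ireb2 11.9 and Cp 9.21 CPM per kb, and Slc11a2 and Tfrc were last at 5.76 and 5.53 CPM per kb. With Pracinostat the means were 4676 CPM per kb for Fth1, 2949 for Ftl1 and 88.8 for Slc11a1, and 7.92 for Slc40a1.

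The light ferritin chain had the lower level with Pracinostat in most libraries. Ftl1 encodes the chain that lines the iron core inside the shell. Ftl1 stood at 5049, 4232 and 3547 CPM in DMSO replicates 1 to 3 and at 4492, 2526, 1782 and 2617 CPM in Pracinostat replicates 1 to 4. Of the Pracinostat libraries 3 lay below every DMSO library and replicate 1 lay within their range. The means were 4276 ± 752.1 CPM (SD, n = 3) and 2854 ± 1154 CPM (SD, n = 4). The log2 fold change was -0.58 ± 0.27 (SE), with a 95% interval of -1.18 to 0.02 (edgeR unadjusted p = 0.0562, adjusted p = 0.9998). With no filter on low counts the edgeR adjusted p was 0.0499, which is past the threshold. That fit called 63 of 25571 genes, and the fold change of Ftl1 was -0.59 with a smaller SE, 0.15. The fold change was -0.88 without Pracinostat replicate 1 (edgeR unadjusted p = 0.000557, adjusted p = 0.757) and -0.42 without Pracinostat replicate 3. With 1 library left out the edgeR unadjusted p of Ftl1 ran from 0.000557 to 0.191. It was 0.0483 with RLE scaling, 0.0394 with upper-quartile scaling, 0.0494 with a minimum count of 30 and 0.0404 without robust estimation. Of all genes 4.2, 4.19, 4.3 and 4.23% were under 0.05 in those fits. In sorted bulk RNA, fewer cells of a type and less RNA per cell cannot be told apart.

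Fth1 encodes the heavy chain, whose ferroxidase center oxidizes iron for storage. Fth1 stood at 5289, 4799 and 4896 CPM with DMSO and at 6565, 4033, 2680 and 4097 CPM with Pracinostat. The Pracinostat libraries surround the narrow DMSO group, with replicate 1 above it and the other 3 below it. Means were 4995 ± 259.6 CPM (SD, n = 3) and 4344 ± 1618 CPM (SD, n = 4), a log2 fold change of -0.20 ± 0.24 (95% interval -0.72 to 0.31, edgeR adjusted p = 0.9998). Without Pracinostat replicate 1 it was -0.47 (edgeR unadjusted p = 0.024), and without Pracinostat replicate 3 it was -0.03.

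Both chains together took 1.04, 0.938 and 0.827% of all counts with DMSO and 1.06, 0.636, 0.456 and 0.685% with Pracinostat. The lowest 3 of the 7 values were Pracinostat libraries and the highest was one as well. By rank of counts, Fth1 was between the 8th and 10th most counted gene with DMSO and between the 8th and 19th with Pracinostat, and Ftl1 between the 11th and 16th and between the 13th and 38th.

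The balance of the chains differed between the groups without overlap. Fth1 counts per Ftl1 count were 1.05, 1.13 and 1.38 in the DMSO libraries and 1.46, 1.60, 1.50 and 1.57 in the Pracinostat libraries. All 4 Pracinostat libraries lay above the highest DMSO library, and the spread among them was narrow. Means were 1.19 ± 0.173 (SD, n = 3) and 1.53 ± 0.0607 (SD, n = 4), a difference of 0.345. It was 0.275 to 0.441 when any 1 library was left out. As a background, the ratio of Fth1 to each of the 15821 other genes was higher with Pracinostat without overlap for 109 genes (0.689%), and lacked overlap in either direction for 649 (4.1%). Fth1 itself lay below every DMSO library in 3 of the 4 Pracinostat libraries, so this background leans to lower ratios. It does not measure how rare a higher ratio is. The ratio of Fth1 to Ftl1 was described and not tested, and the other ratios of members that were computed overlapped between the groups. Ferritin pseudogenes are near-identical copies that share reads with their parents, so single ferritin values are uncertain. The Ftl1-ps1 row held 0.839 to 1.48% of the Ftl1 counts. With the pseudogene rows added to their parents, an alternative chosen after the data were seen, the difference was 0.343.

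**Figure D3:**
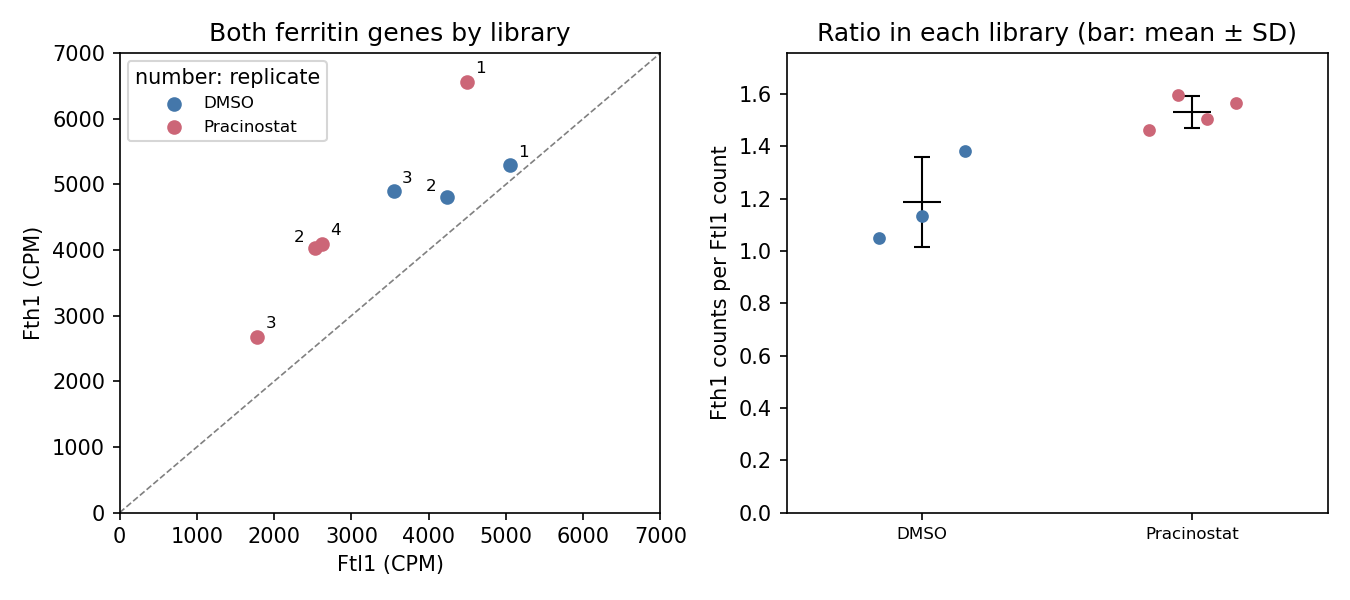
Left, Fth1 against Ftl1 in CPM by library, numbered by replicate, with a dashed line of equal levels; right, counts of Fth1 per count of Ftl1 in each library, with the mean and SD of the 3 DMSO and 4 Pracinostat samples. In the right panel the Pracinostat samples sit between 1.46 and 1.60, above the DMSO samples at 1.05 to 1.38.

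Ncoa4 encodes the receptor that carries ferritin to the lysosome, where its iron is freed. Ncoa4 stood at 116.04, 138.01 and 160.52 CPM with DMSO and at 97.68, 102.95, 116.25 and 123.28 CPM with Pracinostat. All 4 Pracinostat libraries were below the DMSO mean, 2 of them below every DMSO library. The means of 138.2 ± 22.2 CPM (SD, n = 3) and 110 ± 11.8 CPM (SD, n = 4) gave a log2 fold change of -0.33 ± 0.17 (95% interval -0.69 to 0.03, edgeR adjusted p = 0.9998). It ran from -0.44 without DMSO replicate 1 (edgeR unadjusted p = 0.0372) to -0.21 without DMSO replicate 3.

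Ferroportin had the most negative fold change of the members. Slc40a1 encodes ferroportin, the exporter through which iron leaves the cell. Slc40a1 stood at 58.88, 61.60 and 22.22 CPM with DMSO and at 36.13, 20.88, 14.02 and 35.78 CPM with Pracinostat. DMSO replicate 3 was low, inside the Pracinostat range, and the other DMSO libraries were above every Pracinostat library. Means were 47.6 ± 22.0 CPM (SD, n = 3) and 26.7 ± 11.04 CPM (SD, n = 4), a log2 fold change of -0.83 ± 0.40 (95% interval -1.71 to 0.04, edgeR unadjusted p = 0.0591, adjusted p = 0.9998). It was -1.18 without DMSO replicate 3 (edgeR unadjusted p = 0.0043, adjusted p = 0.713). Leaving out each library in turn gave -1.18 to -0.60.

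Cp encodes ceruloplasmin, the copper ferroxidase that oxidizes iron as it leaves through ferroportin. Its levels were 22.56, 45.44 and 43.29 CPM with DMSO and 28.42, 23.20, 9.79 and 51.54 CPM with Pracinostat. Pracinostat libraries were both the lowest and the highest of the 7. The log2 fold change was -0.40 ± 0.47 (95% interval -1.46 to 0.66, edgeR adjusted p = 0.9998), and it ran from -0.87 without Pracinostat replicate 4 to -0.11 without Pracinostat replicate 3. Astrocytes also make ceruloplasmin. Their 6 markers summed to 81.7 to 108 CPM with DMSO and 48.8 to 101 CPM with Pracinostat. Aqp4 was at 0 in every DMSO library and at 0.273, 1.16, 1.19 and 0.0967 CPM with Pracinostat, and did not pass the low-count filter. Of the 5 tested markers of astrocytes, 1 had a positive fold change. The part of these cells in the Cp levels was not tested.

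Markers of border-associated and heme-handling macrophages also had lower sums beside the lower mean of the exporter. The 8 markers summed to 1794, 1628 and 1149 CPM with DMSO and to 1077, 1153, 359 and 1159 CPM with Pracinostat, and 1 of 8 had a positive fold change. F13a1 alone gave 1174 CPM of the sum in DMSO replicate 1. The lowest sum was in Pracinostat replicate 3, the library with the lowest Slc40a1. In that library macrophage and microglia markers (9616 CPM) and proliferation markers (1940 CPM) had their highest sums. Monocyte-derived cell markers summed to 471 to 687 CPM with DMSO and 269 to 618 CPM with Pracinostat, and 0 of 6 had a positive fold change. Of all genes tested 47.7% had a negative fold change. The part of cell composition in the iron gene levels was not tested.

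Tfrc, the transferrin receptor that brings in transferrin-bound iron, was split within the Pracinostat group. It stood at 22.41, 27.68 and 30.98 CPM with DMSO and at 17.52, 43.17, 16.99 and 17.31 CPM with Pracinostat. Pracinostat replicate 2 was the highest of the 7 libraries and the other 3 Pracinostat libraries were the lowest. The means were 27.0 ± 4.33 CPM (SD, n = 3) and 23.7 ± 12.9 CPM (SD, n = 4), a log2 fold change of -0.18 ± 0.35 (95% interval -0.93 to 0.56, edgeR adjusted p = 0.9998). Without Pracinostat replicate 2 it was -0.65 (edgeR unadjusted p = 0.044). The 6 endothelial markers summed to 306, 290 and 246 CPM with DMSO and to 297, 392, 238 and 89.8 CPM with Pracinostat. Their sum was highest in Pracinostat replicate 2 too, and 2 of the 6 had a positive fold change. The part of endothelial cells in the Tfrc levels was not tested.

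Slc11a1 encodes NRAMP1, the metal transporter of the phagosome membrane in macrophages. Its levels were 233.73, 256.01 and 179.58 CPM with DMSO and 266.65, 181.12, 140.78 and 233.42 CPM with Pracinostat. The ranges were broad and overlapped, with Pracinostat replicates 1 and 3 at the ends. The log2 fold change was -0.12 ± 0.21 (95% interval -0.57 to 0.33, edgeR adjusted p = 0.9998).

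Slc11a2 encodes DMT1, which passes iron out of the endosome after transferrin uptake, and was the only member with a positive fold change. Levels of Slc11a2 were 18.63, 11.76 and 21.84 CPM with DMSO and 14.45, 24.11, 18.45 and 16.24 CPM with Pracinostat. The lowest value came from DMSO replicate 2 and the highest from Pracinostat replicate 2. The log2 fold change was 0.07 ± 0.32 (95% interval -0.62 to 0.76, edgeR adjusted p = 0.9998), and it was negative, at -0.14, without DMSO replicate 2. The lowest count of any member in any library was 147, for Slc11a2.

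The genes of both iron regulatory proteins had narrow ranges with Pracinostat. Aco1 encodes IRP1, which serves as the cytosolic aconitase when it holds an iron-sulfur cluster. Aco1 stood at 63.44, 44.48 and 44.96 CPM with DMSO and at 43.35, 37.50, 45.83 and 48.73 CPM with Pracinostat. DMSO replicate 1 was the highest library, and the others lay close together. Its log2 fold change was -0.22 ± 0.21 (95% interval -0.68 to 0.24, edgeR adjusted p = 0.9998), and -0.03 without DMSO replicate 1. Ireb2 encodes IRP2, which is degraded when iron is plentiful. It stood at 57.31, 82.88 and 66.02 CPM with DMSO and at 56.85, 66.12, 61.03 and 68.55 CPM with Pracinostat. The Pracinostat libraries lay within or just under the DMSO range. The log2 fold change of Ireb2 was -0.12 ± 0.19 (95% interval -0.53 to 0.28, edgeR adjusted p = 0.9998). From the lowest to the highest of the 7 libraries Ireb2 spanned 0.54 on the log2 scale, the least of the members, and Cp spanned 2.38, the most.

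Ratios of the exporter and of the transferrin receptor to ferritin, and of Aco1 to Ireb2, overlapped between the groups. Slc40a1 counts per 1000 ferritin counts were 5.70, 6.82 and 2.63 with DMSO and 3.27, 3.18, 3.14 and 5.33 with Pracinostat. Tfrc counts per 1000 ferritin counts were 2.17, 3.07 and 3.67 with DMSO and 1.58, 6.58, 3.81 and 2.58 with Pracinostat. The Slc40a1 ratio was lowest in DMSO replicate 3 and the Tfrc ratio in Pracinostat replicate 1. Aco1 counts per Ireb2 count averaged 0.775 ± 0.297 (SD, n = 3) and 0.698 ± 0.0899 (SD, n = 4).

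Genes that supply iron from heme included the largest negative fold changes among the named pathway genes. Of 10 heme genes tested, 7 had a negative and 3 a positive fold change, with a median of -0.29, and 0 passed edgeR's adjusted or unadjusted threshold. Hmox1, the enzyme that opens the heme ring and frees its iron, stood at 1736, 1342 and 523.7 CPM with DMSO and at 1110, 372.9, 279 and 522.8 CPM with Pracinostat. DMSO replicate 3 and Pracinostat replicate 1 each lay in the range of the other group. The log2 fold change was -1.07 ± 0.62 (edgeR unadjusted p = 0.137), and it ran from -1.61 without Pracinostat replicate 1 (edgeR unadjusted p = 0.00991) to -0.70 without DMSO replicate 1. Slc48a1, which carries heme out of the lysosome, stood at 197.7, 180.2 and 69.8 CPM with DMSO and at 123, 57.9, 40.7 and 65.4 CPM with Pracinostat. Its fold change was -1.06 ± 0.46 (edgeR unadjusted p = 0.0556), and the same DMSO library was low for Slc40a1, Hmox1 and Slc48a1. The unadjusted p of Slc48a1 was 0.00403 by DESeq2 (adjusted p = 0.307), 0.0177 by limma-voom and 0.0166 by edgeR without robust estimation. For Hmox1 these fits gave 0.0964, 0.0205 and 0.0323. Of all genes 4.67, 5.03 and 4.23% were under 0.05 in the same fits. On the positive side were Slc46a1, a transporter of folate and heme, at 0.34 ± 0.30 and Lrp1, the receptor for heme-hemopexin, at 0.02 ± 0.15. Slc46a1 was at 0.10 without DMSO replicate 3.

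**Figure D4:**
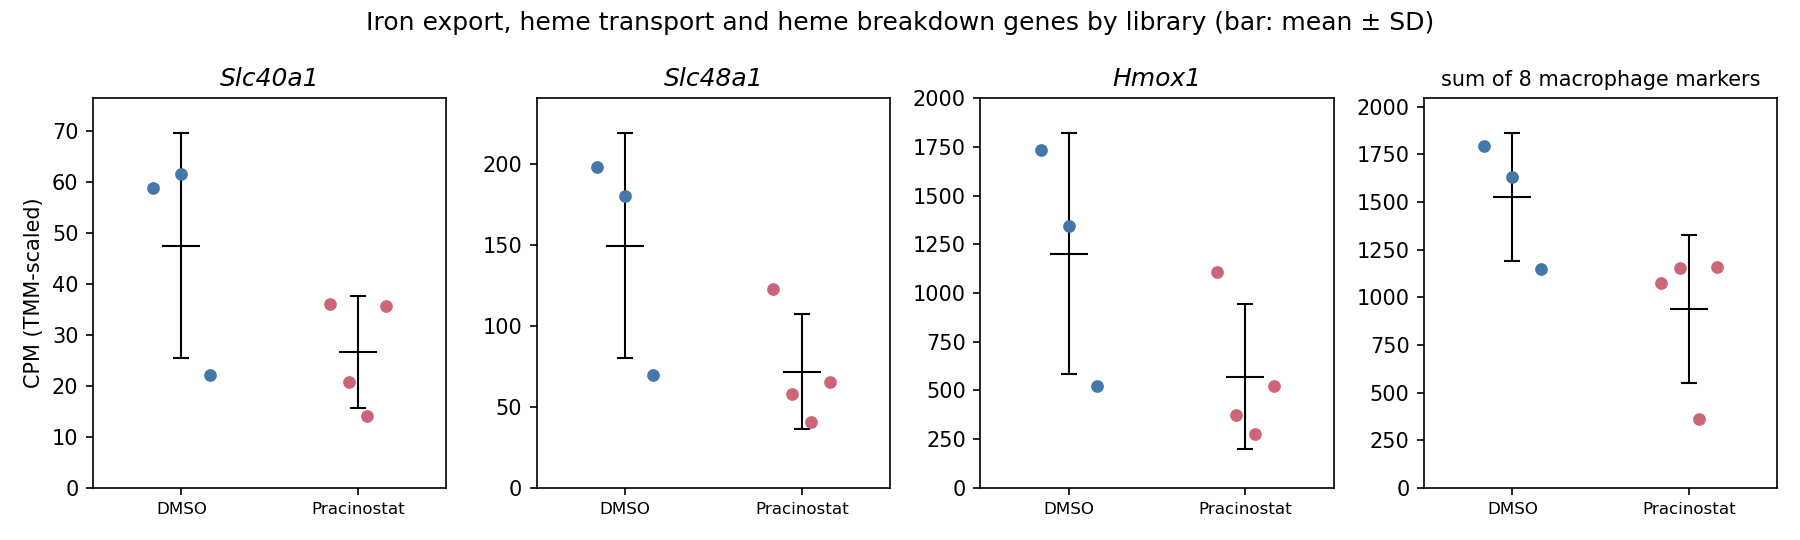
Levels in CPM by library of the iron exporter Slc40a1, of the heme genes Slc48a1 and Hmox1, and of the summed 8 markers of border-associated and heme-handling macrophages, in order of replicate number from left to right, with the mean and SD of the 3 DMSO and 4 Pracinostat samples. In all 4 panels DMSO replicate 3 lies below the other DMSO samples and within the Pracinostat range.

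The other pathway lists gave no call either. Of 10 tested genes for iron reduction, other import and binding, 8 were positive, with a median of 0.18, among them Trf, which encodes transferrin (0.30 ± 0.15, from a mean of 499 to 615 CPM), and the metal importer Slc39a8 (0.49 ± 0.33, and 0.23 without Pracinostat replicate 3). The 8 also include Ltf, lactoferrin, and Lcn2, lipocalin 2, a pair of iron-binding products of neutrophils, which carry CD11b too. Ltf stood at 24.7, 2.00 and 0 CPM with DMSO and at 23.7, 36.6, 0 and 29.5 CPM with Pracinostat. Summed levels of the 7 neutrophil markers, of which Ltf is one, were 156, 13.2 and 2.00 CPM with DMSO and 131, 194, 0.463 and 108 CPM with Pracinostat. Lcn2 was also lowest in Pracinostat replicate 3, at 0.0661 CPM, and highest in DMSO replicate 1, at 24.7 CPM. The part of neutrophils in this list was not tested. Trf stood at 564, 440 and 493 CPM with DMSO and at 670, 654, 524 and 613 CPM with Pracinostat. Oligodendrocyte markers summed to 313, 362 and 190 CPM with DMSO and to 1046, 268, 212 and 351 CPM with Pracinostat. Of these 6 markers 3 had a positive fold change. The part of oligodendrocytes in the Trf levels was not tested. The iron chaperone Pcbp1 was at -0.20 ± 0.15 and the lysosomal channel Mcoln1 at -0.00 ± 0.21. Of 9 regulators 3 were positive, with a median of -0.07. Nfe2l2, the NRF2 factor that controls antioxidant and ferritin genes, was at 0.37 ± 0.17, and it was the only pathway gene of the 43 tested with an edgeR unadjusted p under 0.05 (0.0437), a threshold that 4.18% of all genes tested passed. Its unadjusted p was 0.0522 by DESeq2 and 0.0502 by limma-voom, 0.0516 with RLE and 0.051 with upper-quartile scaling, and 0.00892 to 0.148 by edgeR with 1 library left out. Nfe2l2 stood at 260, 277 and 304 CPM with DMSO and at 347, 429, 283 and 386 CPM with Pracinostat, where 1 Pracinostat library lay within the DMSO range. The ubiquitin ligase Herc2, which acts on NCOA4, was at 0.27 ± 0.17, Hfe, the hemochromatosis gene, at -0.40 ± 0.23, and Fbxl5, the iron sensor that marks IRP2 for decay, at -0.36 ± 0.22. With 1 library left out, Herc2 ran from 0.14 (without Pracinostat replicate 3) to 0.37, Hfe from -0.58 to -0.24 and Fbxl5 from -0.57 to -0.22, the ends for Hfe and Fbxl5 being without DMSO replicates 3 and 1.

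Of 14 genes for mitochondrial iron, iron-sulfur clusters and heme synthesis, 9 were positive, with a median of 0.15. The mitochondrial iron importers Slc25a37 and Slc25a28 were at 0.47 ± 0.27 and 0.42 ± 0.28. Slc25a37 was at 0.25 without DMSO replicate 3, and Slc25a28 at 0.14 without Pracinostat replicate 4. Ppox, of heme synthesis, was at -0.36 ± 0.40, and Nfs1, the cysteine desulfurase that supplies sulfur to the clusters, at -0.27 ± 0.33. Without Pracinostat replicate 2 they were at -0.19 and -0.42, and without Pracinostat replicate 4 Ppox was at -0.54. Over all 43 tested pathway genes 23 were positive and 20 negative, with a median of 0.01, and 0 passed the edgeR adjusted threshold.

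**Figure D5:**
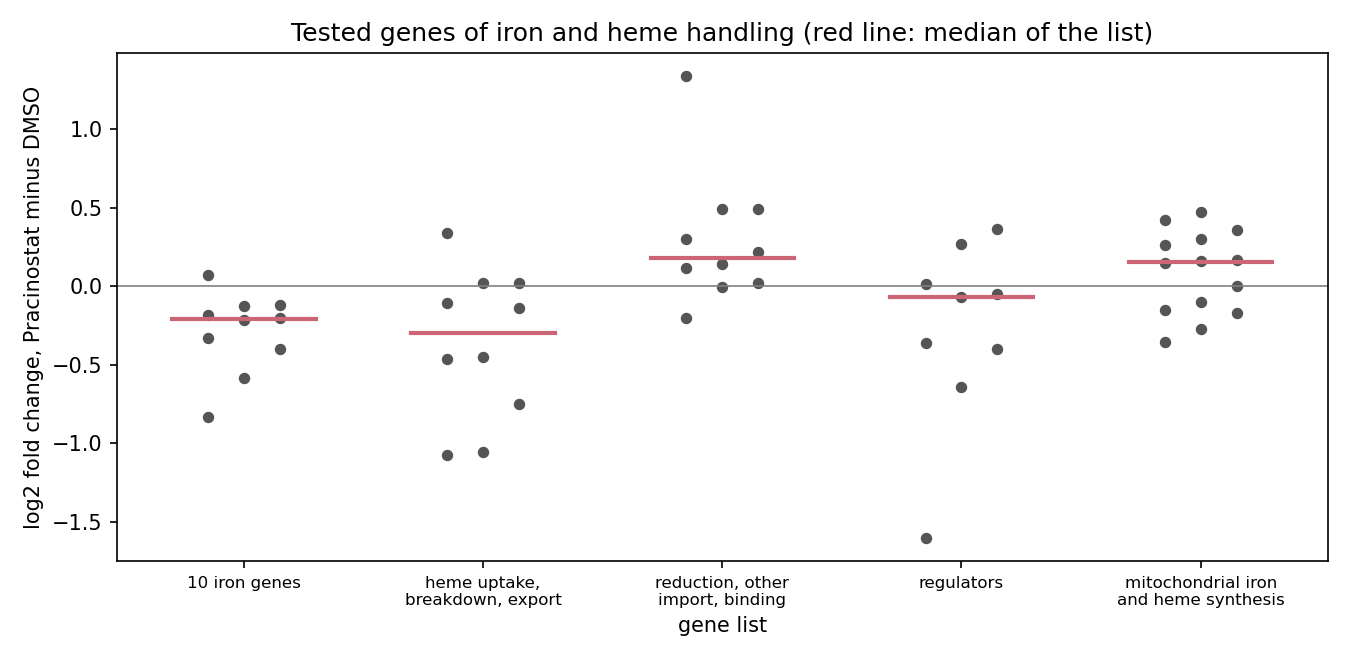
Log2 fold change, Pracinostat minus DMSO, of each tested gene in the iron gene lists, with the median of each list. The 10 members and the heme list have medians of -0.21 and -0.29, and the import and mitochondrial lists 0.18 and 0.15.

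The genes closest in pattern to 3 of the members were found over the 7 libraries, by the mean absolute difference of log2 CPM after each gene's mean was removed. For Slc40a1 they were Ecm1 (0.174), the heme transporter Slc48a1 (0.196), Pirb (0.203), Adamtsl4 (0.217) and F13a1 (0.224), out of 7131 genes compared. F13a1 is also one of the border-associated macrophage markers. For Tfrc they were Rad54l2 (0.176), Zdhhc18 (0.179), Ptpmt1 (0.186), Ppp1r12b (0.194) and Poc1b (0.196). For Fth1 the distances were smaller, with Mpnd (0.0664), Hps1 (0.0692), Esyt1 (0.109), Fam174a (0.109) and Rnh1 (0.113), whereas Fth1 and Ftl1 were 0.188 apart. Among pairs of members Ncoa4 and Ireb2 were closest, at 0.159.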

How the data were processed

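RNA of CD11b+ sorted cells was measured in 3 DMSO and 4 Pracinostat libraries. The deposited values are estimated counts per gene symbol, stored as whole numbers and not normalized. Tools named without version or role are RSEM, STAR, DESeq2, Trim Galore, MultiQC and FastQC, and the build is GRCm39, per the submitters' processing notes. The kit is stranded, per the labels' protocols. How strand entered the counting, and which annotation was used, is not given in the sources used here. Antisense and overlapping genes are therefore uncertain.

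Genes were tested with edgeR 4.0.16 (R 4.3.3), with TMM scaling, filterByExpr by group (minimum count 10), robust quasi-likelihood fits and two-sided tests, on 15822 genes with Benjamini-Hochberg adjustment and a threshold of 0.05. All 10 members passed the filter. Fold changes are Pracinostat minus DMSO, on the log2 scale, ± SE. The code was tested on simulated data with 200 changed genes. It recovered 19.5% of genes changed 2-fold and 77% of genes changed 4-fold at the adjusted threshold. A gene that is not called here can therefore still differ by 2-fold. Pairs of libraries were checked for duplicates and none were found.

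The members and lists were chosen with earlier results of these data known. Named were all members, the 2 tested genes of smallest p, in each direction, of each pathway list, any gene past the adjusted threshold, the 5 genes most alike in pattern (prior count 2, mean log2 CPM of at least 4, no unnamed gene models) to Slc40a1, Tfrc and Fth1, and Itgam and Col1a1 as checks. Genes named outside this rule (Ftl1-ps1, Aqp4, Ltf and Lcn2) were chosen after their values were seen. Alternatives were DESeq2 1.42.0, limma-voom (limma 3.58.1), other scalings and low-count filters, no robust estimation, the replicate number as a block, each library left out and both collagen-rich libraries left out.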

Additional observations from a re-analysis of the deposited data

Results flagged for a closer look

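Among the 4 Pracinostat libraries, 32 values were screened for a single library standing far from its nearest neighbour relative to the whole range, and 2 did. Chance alone flags about 1 in 20 groups. The 3 DMSO libraries were not screened. Pracinostat replicate 2 had Tfrc at 43.2 CPM, where the rest of its group lay between 16.99 and 17.52 CPM and the DMSO libraries between 22.4 and 31.0 CPM. Pracinostat replicate 4 had 5.33 Slc40a1 counts per 1000 ferritin counts, where the rest of its group lay between 3.14 and 3.27 and the DMSO libraries between 2.63 and 6.82.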

How the results depend on the processing

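The count of 0 genes called over all genes became 63 of 25571 with no low-count filter and 27 of 16878 by DESeq2. A fit with a replicate block called 4 of 15311 genes. With 1 library left out the count was 0 to 3, the 3 without DMSO replicate 3. The count of 0 members called became 1 with no low-count filter (Ftl1) and was 0 to 0 with 1 library left out. The cause was not tested. The block fit also leaves out Pracinostat replicate 4. Same-numbered samples had correlations of their deviations of 0.0445, -0.0352 and 0.0728, so the numbers are not shown to pair the samples. In the block 0 members were called, and Slc40a1, Ftl1 and Ncoa4 had an unadjusted p under 0.05. Of all 15311 genes tested in the block, 692 did (4.52%). Directions turned for 5 genes near 0. With 1 library left out, the log2 fold change ran from -0.22 to 0.20 for Mcoln1, -0.072 to 0.12 for Lrp1, -0.14 to 0.27 for Slc11a2, -0.23 to 0.034 for Ireb2 and -0.26 to 0.025 for Slc11a1. Mcoln1 was at 0.037 with limma-voom and 0.0097 with the block. Without both collagen-rich libraries Mcoln1 was at 0.25, Slc11a2 at -0.037 and Ireb2 at 0.09. Of the ratios, the difference in Slc11a1 per Slc11a2 ran from -5.17 to 1.61, in Aco1 per Ireb2 from -0.196 to 0.089 and in Tfrc per 1000 ferritin counts from -0.31 to 1.36. With 3 and 4 libraries the intervals are wide, and that of Ftl1, from -1.18 to 0.02, includes 0.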
